A study of Mus musculus with 4 samples.

Results

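The 7 genes described here are Sftpc, Sftpb, Sftpa1, Sftpd, Scgb1a1, Scd1 and Fabp5, matched by symbol among the 32285 genes of each library. They were chosen by their UMIs and CPM in metastasis against sham lung, in epithelial cells and as free RNA in the other lung classes, so every metastasis-to-sham value of these genes is a description and none was tested. The data were single-cell RNA libraries of lung and of blood, and the mice were female, of strain C57/Bl6 and aged 6 to 8 weeks. In the metastasis arm 800000 B16F10 melanoma cells were injected into the spleen on day 0 with removal of the spleen straight after. In the sham arm saline was injected and the spleen was removed in the same way. All mice of both arms also received 250000 B16F10 cells under the skin, so the sham arm was tumour-bearing too, and tissue was taken on day 7. Each tissue and arm had 1 library, with the number of mice behind it not given in the labels, and intervals therefore cover counting error only.

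Surfactant is a film of lipid and protein that lowers surface tension in the alveoli. Alveolar type 2 cells make it, store it in lamellar bodies and secrete it, while club cells line the small airways and secrete the protein encoded by Scgb1a1. Lung cells that break during preparation release RNA into the suspension, and in droplet sequencing such free RNA is read in barcodes of cells that do not make it.

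Sftpc encodes surfactant protein C and Sftpb surfactant protein B, the hydrophobic proteins that organise the lipid film. Sftpa1 and Sftpd encode surfactant proteins A and D, collectins that bind microbes. Scgb1a1 encodes the club cell secretory protein. Scd1 encodes stearoyl-CoA desaturase, which makes monounsaturated fatty acids, and Fabp5 encodes a fatty acid binding protein. On the GRCm38 build, annotated with GENCODE M21, Sftpc (chr14:70520949-70524081, minus strand), Sftpa1 (chr14:41131782-41136452, plus strand) and Sftpd (chr14:41172214-41185149, minus strand) lay on the same chromosome. Scgb1a1 (chr19:9083636-9087958) and Scd1 (chr19:44394455-44407879) were both on the minus strand, and Sftpb (chr6:72304610-72314371) and Fabp5 (chr3:10012548-10016607) on the plus strand. No other annotated gene overlapped any of the 7.

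The promoters of Sftpb and Sftpa1 are shown because the RefSeq table used here (GRCm38.p6) held those of these 2 members, each with 250 bases before and 50 after the annotated start. Capitals mark CTCAAG, the core of many sites of NKX2-1, a transcription factor of lung epithelium. It was the only motif searched, on both strands, and was chosen after the sequences had been seen. The first is chr6:72304360-72304659 and the second chr14:41131538-41131837, both on the plus strand.
Sftpb: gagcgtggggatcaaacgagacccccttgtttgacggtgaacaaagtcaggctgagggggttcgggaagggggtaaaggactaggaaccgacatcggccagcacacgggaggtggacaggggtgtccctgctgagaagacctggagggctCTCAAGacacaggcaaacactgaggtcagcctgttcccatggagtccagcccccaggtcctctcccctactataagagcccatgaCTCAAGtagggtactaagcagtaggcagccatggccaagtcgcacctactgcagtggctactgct
Sftpa1: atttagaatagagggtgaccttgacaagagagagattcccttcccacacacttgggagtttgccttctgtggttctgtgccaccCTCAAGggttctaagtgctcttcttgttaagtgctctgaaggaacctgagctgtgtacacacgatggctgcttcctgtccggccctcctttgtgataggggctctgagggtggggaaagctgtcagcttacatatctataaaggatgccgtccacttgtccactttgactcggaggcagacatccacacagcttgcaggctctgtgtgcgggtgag
Sftpb held the motif 2 times, starting 100 and 15 bases before the annotated start. Sftpa1 held it once, starting 166 bases before it. Of 27025 promoters of this length, 16.2% held the motif and 1.41% held it at least 2 times. A match is a description of the letters and not a binding site.

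The lung libraries held 31176 barcodes in the metastasis arm and 36125 in the sham arm, and haemoglobin made up 78.1% and 65.7% of their UMIs (unique molecular identifiers, counts of captured RNA molecules). After filtering, 12969 metastasis and 13443 sham lung cells were kept, with median depths of 1364 and 2544 UMIs without haemoglobin. Because haemoglobin differed, levels are given as UMIs per 1000000 UMIs of the class without haemoglobin (CPM). The kept cells of the 2 lung libraries shared 47 barcodes, 0.362% of the smaller set. Cells were grouped without using the 7 genes, and classes were named from marker genes; the rebuilt names need not be those of the authors.

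An epithelial-like class, with 14 of 21 epithelial markers, held 211 metastasis and 126 sham cells, or 1.63% (95% exact binomial interval 1.42 to 1.86) and 0.937% (0.781 to 1.12) of kept cells. Those shares also depend on red cell content, as erythroid-like cells were 40.9% of kept cells in metastasis and 4.87% in sham lung. The epithelial-like class was mainly airway: 151 metastasis and 73 sham cells were club-like, with 8 of 11 club markers raised in them. Only 14 metastasis and 21 sham cells were alveolar type 2-like, although all 14 type 2 markers were raised in these. The type 2-like share of the epithelial-like class was 6.64% (3.68 to 10.9) in metastasis lung and 16.7% (10.6 to 24.3) in sham lung. The other 46 metastasis and 32 sham epithelial cells fell into a pair of subclusters that stayed unnamed. Slc4a1, a red cell gene, was among the leading genes of one, and the other was led by Sprr1a and lymphocyte genes such as Ms4a4b and Ccr7. Type 2-like cells were shallow, with median depths of 620.5 and 884 UMIs in metastasis and sham lung. Fewer cells of a type and less RNA per cell cannot be told apart in the summed values of the whole class.

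In the summed epithelial-like class, 3 of the 7 genes were lower in metastasis lung and none was higher by the rule used here, a difference of at least 1.5-fold with a 95% counting interval that excludes equality. Of the 1457 genes measured in this class (30 or more UMIs over both libraries), 18.1% met the rule as lower and 3.71% as higher. Sftpc had 5855 CPM in metastasis and 16070 CPM in sham epithelial-like cells, a log2 ratio of -1.46 (-1.51 to -1.40). Scd1 had 54.7 and 174 CPM (-1.67, -2.22 to -1.13) and Fabp5 54.7 and 246 CPM (-2.17, -2.69 to -1.67) in the same order. These are the genes whose UMIs in the class lay mostly in the few type 2-like cells, the share of which differed between the libraries; the part of that share in the ratios was not tested. The other 4 genes lay within 1.5-fold, with log2 ratios of -0.46 for Sftpa1, -0.58 for Sftpb, -0.16 for Sftpd and 0.16 for Scgb1a1. The median log2 ratio of all genes measured in the class was -0.14. Scgb1a1 alone made up 67.9% of the class's UMIs in metastasis lung and 60.9% in sham lung.

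Within the type 2-like cells, Sftpc had 231540 CPM in metastasis and 310970 CPM in sham cells (log2 -0.43, -0.48 to -0.37), a difference of under 1.5-fold. Without the richest cell of each library it was -0.21, and in the 2 metastasis and 7 sham cells that passed a stricter filter it was -0.81, which met the rule as lower. Per cell it took a median of 29.6% of UMIs in the 14 metastasis cells (lowest 0, highest 44.6%) and 33.8% in the 21 sham cells (lowest 4.79%, highest 45.9%). The cells of the libraries overlapped over nearly their whole range, apart from 2 metastasis cells with no Sftpc UMI. Sftpa1 had 24022 and 27583 CPM (-0.20) and a per-cell median of 2.54% and 2.50% in metastasis and sham cells. Sftpa1 therefore lay within 1.5-fold too.

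**Figure D1:**
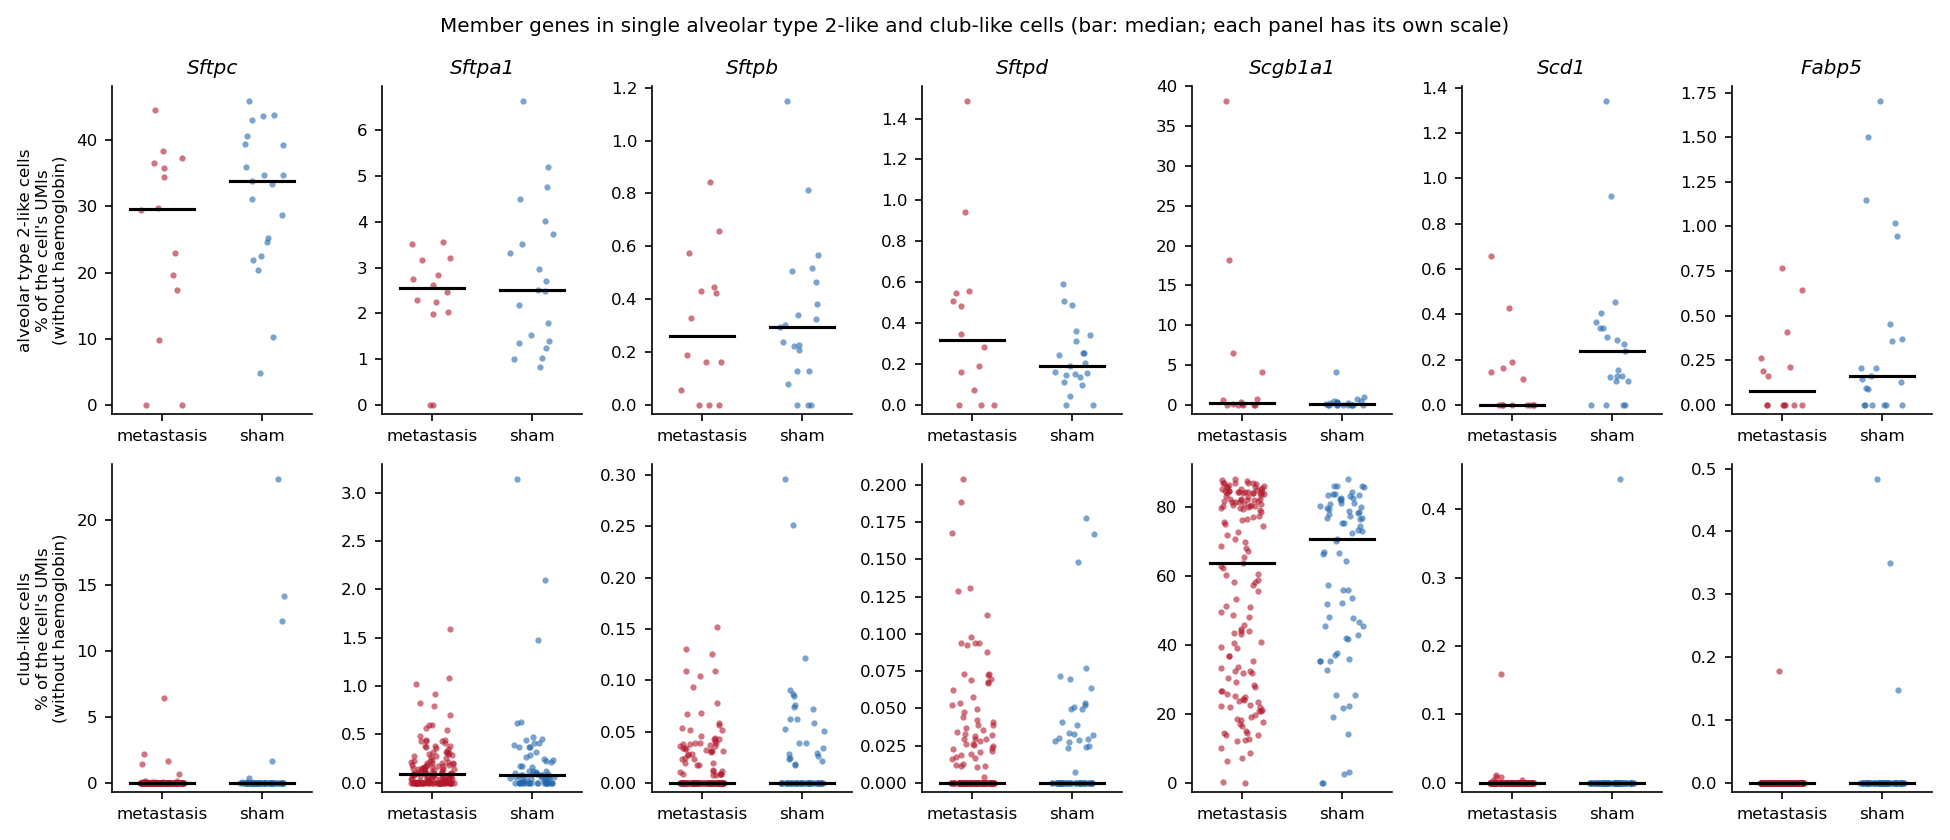
Share of each cell's UMIs without haemoglobin (percent, vertical axes, a scale for each panel) taken by each gene in single alveolar type 2-like cells (top) and club-like cells (bottom), metastasis left and sham right; each point is a cell and the bar is the median. Sftpc takes a median of 29.6% in metastasis and 33.8% in sham type 2-like cells, and Scgb1a1 63.7% and 70.8% in club-like cells.

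Sftpd had 4195 CPM in metastasis and 2245 CPM in sham type 2-like cells (log2 0.90, 0.36 to 1.45), and stayed at 0.88 without the cell richest in it in each library. Sftpb had 4827 and 3299 CPM (0.55, 0.08 to 1.02), but 1 metastasis cell of 6521 UMIs held 65.5% of its UMIs, and without the richest cells the ratio was -0.12 (-0.81 to 0.55). Scgb1a1, the club cell transcript, had 23849 and 4032 CPM (2.56, 2.23 to 2.91). Its median share per type 2-like cell was 0.263% in metastasis and 0.0951% in sham cells. The highest metastasis cells stood at 38.1% and 18.1%, and these were the 2 metastasis cells with 0 UMIs of Sftpc and of the other 5 genes. Under the stricter filter the ratio was -0.84.

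Both lipid genes had their highest level of any lung class in type 2-like cells. Scd1 had 2184 CPM in metastasis and 3116 CPM in sham type 2-like cells (log2 -0.51, -1.13 to 0.08), with a UMI in 6 of 14 and 17 of 21 cells. One metastasis cell held 73.7% of its UMIs there, and without the richest cells the ratio was -1.43 (-2.58 to -0.43). Fabp5 had 2414 and 4444 CPM (-0.88, -1.44 to -0.34), with a UMI in 7 of 14 metastasis and 15 of 21 sham cells, and without the richest cells the ratio was -0.45 (-1.18 to 0.24). By the rule, 2 of the 7 genes were higher in metastasis type 2-like cells (Sftpd, and Scgb1a1 with those 2 cells included) and 1 was lower (Fabp5). Among the 150 genes measured in these cells, 10% met it as higher and 4.00% as lower.

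Club-like cells carried Scgb1a1 in nearly every cell and Sftpa1 in most, with Sftpb, Sftpd and Sftpc read in fewer of them. Scgb1a1 had 728310 CPM in metastasis and 724310 CPM in sham club-like cells (log2 0.01), and was read in 150 of 151 and 71 of 73 cells. Sftpa1 was read in 109 of 151 metastasis and 52 of 73 sham club-like cells, at 1806 and 1436 CPM (0.33, 0.16 to 0.50). Sftpb (195 and 222 CPM) and Sftpd (240 and 222 CPM) differed by log2 -0.18 and 0.11 between metastasis and sham club-like cells. All 3 lay within 1.5-fold.

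Sftpc was read in 21 of 151 metastasis and 9 of 73 sham club-like cells, and 1 cell held 41.5% of its UMIs in metastasis and 47.9% in sham cells. Its CPM was 764 and 1248 (log2 -0.71, -0.91 to -0.50), which made it the 1 lower gene among the 5 measured; of the 832 genes measured in club-like cells, 4.93% were lower and 4.45% higher. That ratio turned with the choice of cells. Without the richest cells it was -0.53, inside 1.5-fold. Among the 68 metastasis and 19 sham cells of the stricter filter it was 3.27 (472 against 14 UMIs). The sham club-like cells richest in Sftpc had it at 23.1%, 14.2% and 12.3% of their UMIs, with Scgb1a1 at only 2.52%, 0% and 0%. In the metastasis cell with the highest share, Sftpc was 6.44% and Scgb1a1 60.6%. The part of these cells in the ratio was not tested. Scd1 (6 and 3 UMIs) and Fabp5 (3 and 5 UMIs) were under the 30 UMIs needed in club-like cells.

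The share of cells with a UMI set these classes apart at equal depth. With every cell thinned to 500 UMIs, Sftpa1 was read in 35.1% (27.5 to 43.3) of metastasis and 37.5% (26.4 to 49.7) of sham club-like cells. T-like cells, which should lack it, stood at 0.0931% (0.0113 to 0.336) of metastasis and 0.0187% (0.000474 to 0.104) of sham cells. Before thinning, median depths were 2584 and 2463 UMIs in club-like and 2777 and 3505 UMIs in T-like cells. Sftpc, thinned, was read in 5.30% of metastasis and 5.56% of sham club-like cells, near Sftpb (8.61% and 6.94%) and Sftpd (5.96% and 8.33%), and in 92.3% and 100% of type 2-like cells. In T-like cells the thinned share was 0.140% and 0.187% for Sftpc. For each 100 Sftpc UMIs there were 10.4 and 8.87 Sftpa1 UMIs in type 2-like cells, but 236 and 115 in club-like cells, of metastasis and sham lung. The sham club-like value includes the cells rich in Sftpc and poor in Scgb1a1 that are given above.

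**Figure D2:**
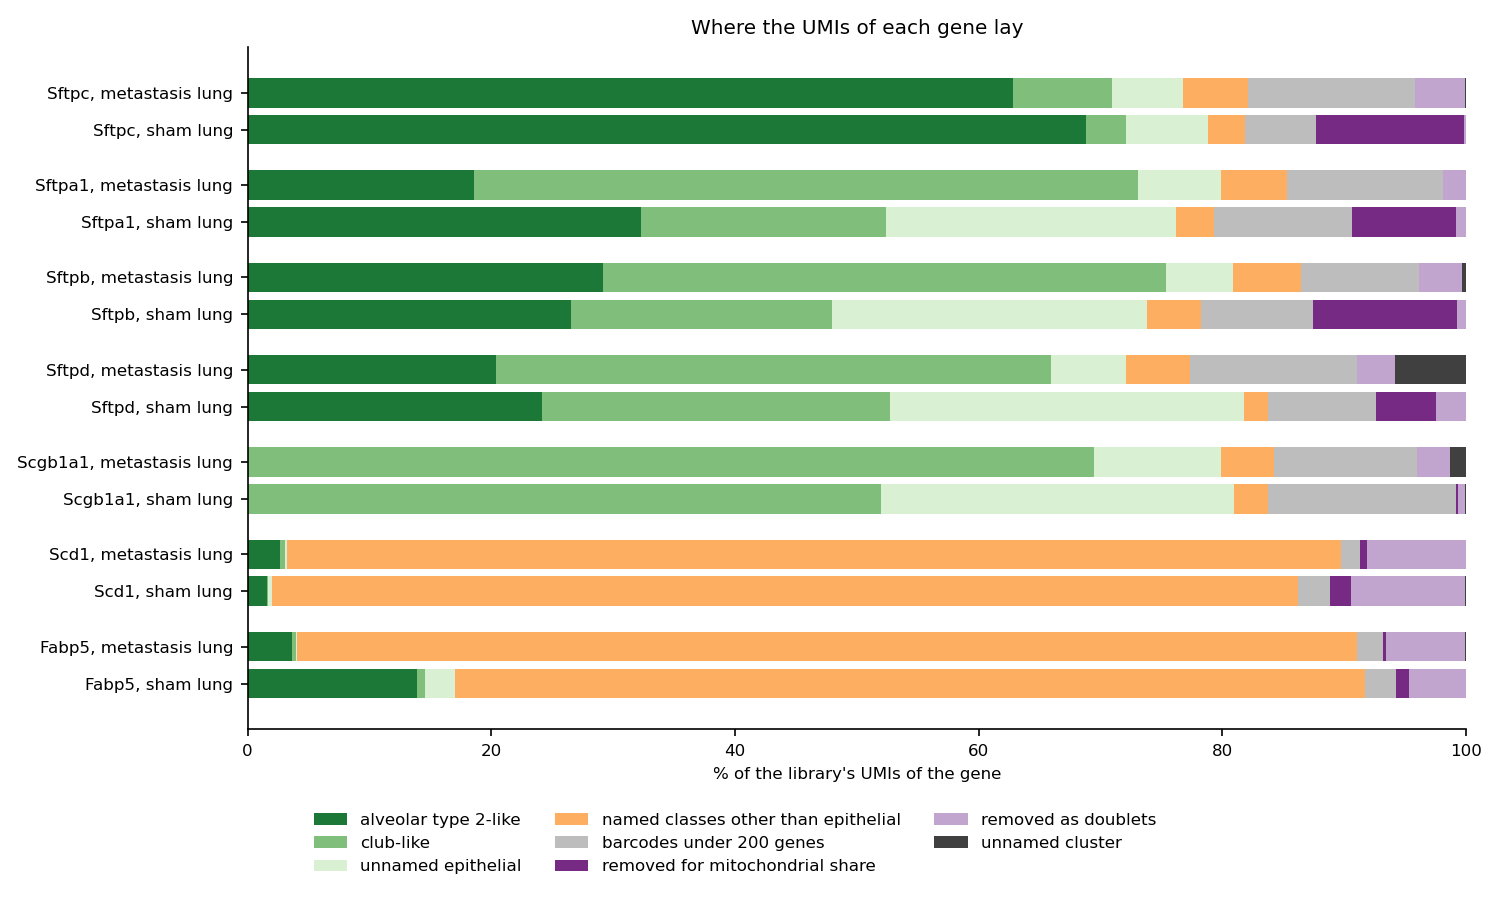
Percent of each gene's UMIs in a lung library (horizontal axis) by the kind of barcode that held them, with metastasis above sham for each gene. Type 2-like cells held 62.8% (metastasis) and 68.8% (sham) of Sftpc, club-like and unnamed epithelial cells nearly all of the epithelial Scgb1a1, and other classes most of Scd1 and Fabp5.

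Type 2-like cells held 62.8% of all Sftpc UMIs of metastasis lung and 68.8% of those of sham lung. Club-like cells held 54.5% and 20.1% of Sftpa1, 46.2% and 21.4% of Sftpb and 45.5% and 28.6% of Sftpd in the same order. In sham lung another 12.2% of Sftpc lay in barcodes removed for a mitochondrial share over 10%, where metastasis lung had 0 UMIs. Barcodes removed as doublets went the other way, with 4.13% of Sftpc in metastasis and 0.122% in sham lung. With no mitochondrial limit, an alternative chosen after seeing the data, 5 of the 7 genes were lower in metastasis epithelial-like cells, and the log2 ratio of Sftpc was -1.71. The share of all genes that met the rule was not counted without that limit, so this count has no background. Over the whole library, cells and other barcodes together, Sftpc had 230 CPM in metastasis and 217 CPM in sham lung (0.09).

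Other genes of surfactant handling were counted from lists; those of the first list that are named also served as type 2 markers. Of 16 lamellar body and surfactant processing genes, 7 were measured in type 2-like cells; 2 were higher in metastasis cells, none lower, and their median log2 ratio was 0.57, against 0.07 over all 150 genes. Lyz1, a lysozyme, had 1552 and 412 CPM (1.91), and Hc, complement C5, had 1149 and 458 CPM (1.33) in metastasis and sham type 2-like cells. Ctsh, a protease that processes surfactant proteins, had 1092 and 687 CPM (0.67), and Cxcl15, a lung epithelial chemokine, 5287 and 7881 CPM (-0.58). The last 2 did not meet the rule. Lyz1 rested on 27 metastasis and 9 sham UMIs, and Hc on 20 and 10. The metastasis type 2-like cells included 1 of 6521 UMIs, against a median of 620.5. The ratios of the list genes were not recalculated without it. Of the 11 type 2 transcription factors, the 28 fatty acid and phospholipid synthesis genes, the 18 cholesterol synthesis genes and the 16 genes of fatty acid binding, uptake and storage, none was measured in type 2-like cells. In the epithelial-like class 3 of the fatty acid synthesis genes were measured and 1 was lower in metastasis cells, the acyl-CoA ligase Acsl4 (9.51 and 49.6 CPM). Of the cholesterol genes 1 was measured and lower, the farnesyl diphosphate synthase Fdps (23.8 and 47.5 CPM). Of the lamellar body genes 13 were measured there, 1 higher and 4 lower, with a median of -0.33 against -0.14 over all genes. Of the 13 alveolar type 1 genes 5 were measured, 1 higher and 3 lower, with a median of -0.84. Among all genes measured, 3.71% were higher and 18.1% lower in the epithelial-like class, and 10% and 4.00% in type 2-like cells.

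Of 12 club secretory genes, 11 were measured in club-like cells, of which 2 were lower in metastasis cells and none higher, with a median log2 ratio of -0.21 against 0.11 over all genes measured there. Cyp2f2, a cytochrome P450 of club cells, had 602 CPM in metastasis and 1275 CPM in sham cells (-1.08), and Bpifa1, an airway antimicrobial protein, 1872 and 3316 CPM (-0.82). Cldn10, a claudin, had 165 and 241 CPM (-0.55) and Cckar, a cholecystokinin receptor, 35.3 and 53.6 CPM (-0.60), and neither met the rule. Among all genes measured in club-like cells, 4.45% were higher and 4.93% lower.

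Stress and injury genes were lower in the summed class, and nearly all UMIs of the leading ones in sham lung lay in the unnamed epithelial subclusters, outside type 2-like and club-like cells. Those subclusters held 38 metastasis and 17 sham cells and 8 metastasis and 15 sham cells, the second being the one led by Sprr1a. Of 17 immediate early genes, 9 were measured in epithelial-like cells and 8 were lower in metastasis cells, with a median of -1.46 against -0.14 over all genes of the class. Among all genes of the class, 18.1% were lower. Jun, a transcription factor subunit, had 3.57 and 70.3 CPM (-4.30) and Atf3, a stress transcription factor, 5.95 and 62.0 CPM (-3.38). Klf6, a transcription factor, had 13.1 and 110 CPM (-3.07), and Junb 47.6 and 136 CPM (-1.52). In sham lung, type 2-like and club-like cells together held 4 of the 34 Jun UMIs, 0 of the 30 Atf3 UMIs and 0 of the 53 Klf6 UMIs of the class. Of 14 injury and transitional genes 8 were measured and 6 were lower, with a median of -0.98. Areg, an epidermal growth factor receptor ligand, had 1 UMI in metastasis and 58 in sham cells, 0 of the 58 in type 2-like or club-like cells. Lgals3, a galectin, had 44.0 and 511 CPM (-3.54), and 16 of its 247 sham UMIs lay in type 2-like and club-like cells. Clu, the chaperone clusterin, had 16.6 and 39.3 CPM (-1.24) and S100a6, a calcium binding protein, 174 and 385 CPM (-1.15). In club-like cells only 2 of the immediate early and 6 of the injury genes were measured, with medians of 0.03 and -0.04. Of these 0 were lower and 1 was higher, the lipocalin Lcn2 (77.9 and 23.0 CPM, on 53 and 6 UMIs). Lcn2 also served as a neutrophil marker here, and neutrophil-like cells were 9.86% of kept cells in metastasis and 0.409% in sham lung. The source of its UMIs in club-like cells was not tested. The part of the stress and injury genes in the member ratios was not tested.

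**Figure D3:**
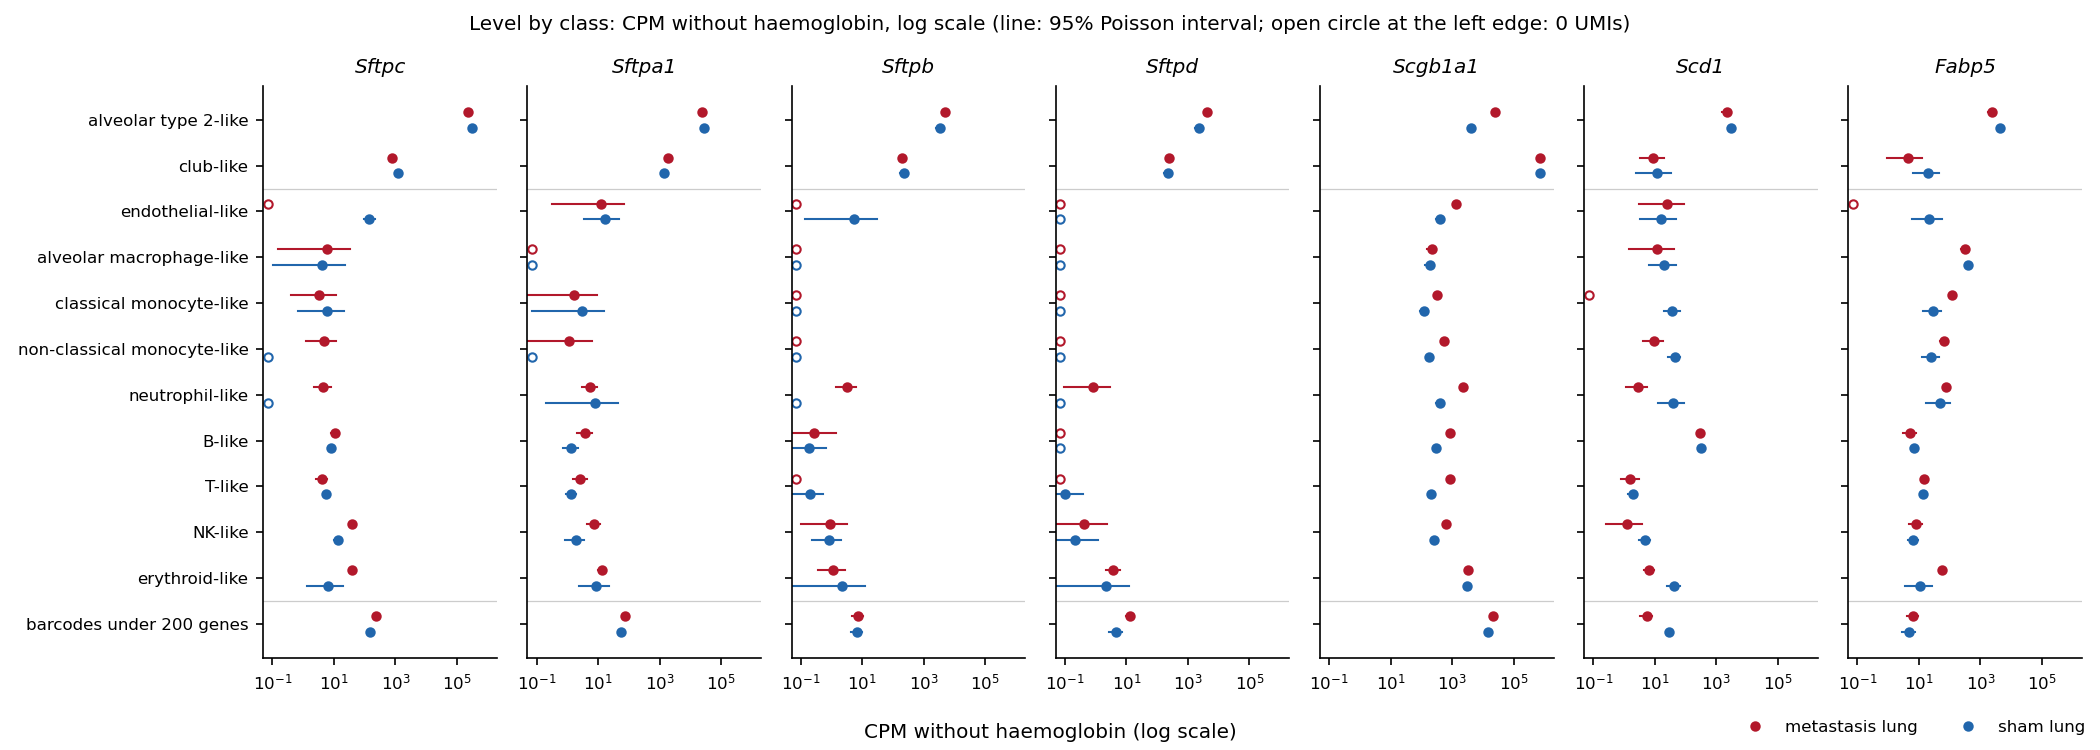
Level of each gene (CPM without haemoglobin, logarithmic horizontal axis) by lung class, metastasis above sham in each pair; lines are 95% Poisson intervals and open circles mark 0 UMIs. Surfactant protein genes drop steeply below the type 2-like and club-like rows, Scgb1a1 is read in every class, and Scd1 has a second high level in B-like cells (302 CPM in metastasis, 310 CPM in sham).

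Outside the epithelium, Scgb1a1 was read in every named lung class of both libraries, and was higher in metastasis lung in most of them. Summed over the other named classes (12564 metastasis and 13268 sham cells) it had 1440 and 271 CPM (log2 2.41, 2.37 to 2.44). By the rule it was higher in 7 of the 8 classes with at least 50 cells in each library. Of all genes measured, the rule was met as higher and as lower by 3.27% and 0.841% in T-like, 1.92% and 1.42% in B-like, 1.77% and 1.52% in NK-like and 6.44% and 4.90% in classical monocyte-like cells. In the other classes it was met by 5.26% and 6.26% in non-classical monocyte-like, 2.58% and 7.32% in neutrophil-like, 16.7% and 24.0% in erythroid-like and 9.89% and 6.83% in endothelial-like cells. T-like cells had 854 CPM in metastasis and 199 CPM in sham lung, neutrophil-like cells 2332 and 395 CPM, and endothelial-like cells 1382 and 395 CPM. In metastasis lung 1 T-like cell held 1333 of the 5277 Scgb1a1 UMIs of its class, and 1 neutrophil-like cell 2249 of 5854. The highest sham cells held 150 of 3865 and 13 of 51. Ratios of these classes were not recalculated without the richest cells. In barcodes of under 10 Scgb1a1 UMIs, metastasis and sham means were 1.40 and 0.57 UMIs in T-like and 1.41 and 0.70 in neutrophil-like cells. Erythroid-like cells had 3196 and 3030 CPM (0.08, -0.00 to 0.16), but 1 sham cell held 846 of their 1383 Scgb1a1 UMIs in sham lung. Without the richest cell of each library the ratio there was 1.23 (1.10 to 1.35), and without cells of 10 or more UMIs 1.17 (1.03 to 1.32), both of which met the rule as higher. Their median depth was low, at 697 and 603 UMIs.

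Counted per barcode, Scgb1a1 outside the epithelium was nearly flat across the classes of each library. A Scgb1a1 UMI was present in 59.4% to 66.2% of barcodes over the 8 classes of metastasis lung, and in 30.7% to 37.2% over those of sham lung. Median depths of these classes spanned 697 to 4819 UMIs in metastasis and 603 to 5231 UMIs in sham lung. The ranges of the libraries did not overlap. Erythroid-like cells had a UMI in 66.2% of metastasis and 34.8% of sham cells. Barcodes of under 200 genes, 99.6% and 99.7% of which were mainly haemoglobin, gave 62.8% and 32.1%. Leaving out barcodes with 10 or more UMIs, the mean was 1.32 to 1.70 Scgb1a1 UMIs per barcode over the metastasis classes and 0.511 to 0.704 over the sham classes.

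**Figure D4:**
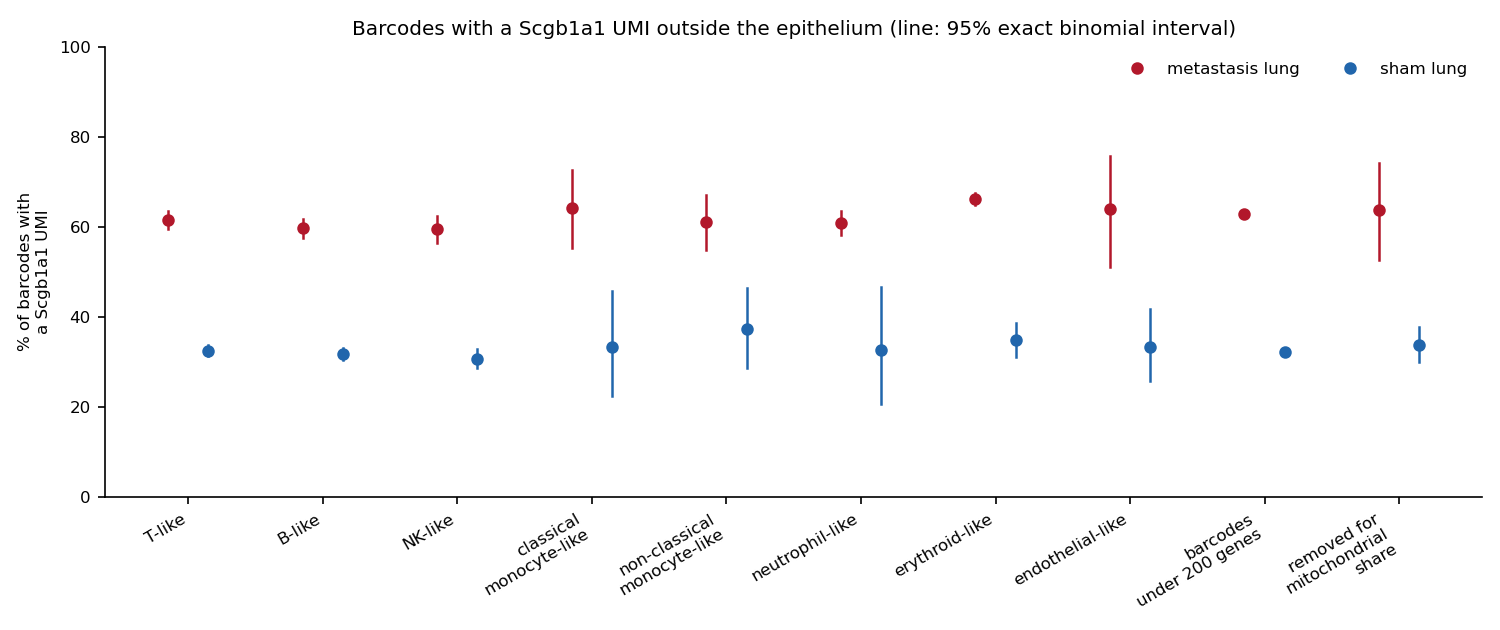
Percent of barcodes with at least 1 Scgb1a1 UMI (vertical axis) in 8 lung classes and in 2 kinds of barcode that were filtered out, metastasis left of sham; lines are 95% exact binomial intervals. Metastasis classes lie at 59.4% to 66.2% and sham classes at 30.7% to 37.2%.

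At a fixed depth of 500 UMIs, Scgb1a1 was read in 38.8% (38.0 to 39.7) of metastasis and 10.7% (10.2 to 11.3) of sham cells outside the epithelium, with 554 and 176 shallower cells left out. Unthinned, these shares were 63.0% and 32.2%. Kept cells were deeper in sham lung (median 2544 UMIs without haemoglobin, against 1364 in metastasis lung), so thinning removed more from them. The part of depth and of class mix in the wider thinned gap was not tested. The blood libraries, from tissue without lung epithelium, held 3 Scgb1a1 UMIs in 18115 metastasis barcodes and 7 in 20975 sham barcodes. Epithelial-like cells of the metastasis library held 570858 Scgb1a1 UMIs, against 294651 in sham lung. The part of that difference in the Scgb1a1 read outside the epithelium was not tested, and neither was the source of those UMIs.

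Sftpc outside the epithelium was rare and uneven. It had 342 UMIs in metastasis and 300 UMIs in sham lung over the other named classes, 16.0 and 8.04 CPM (log2 0.99, 0.76 to 1.22). The 4 metastasis and 6 sham cells with 10 or more Sftpc UMIs held 52.3% and 49.7% of these. With haemoglobin in the total the ratio was -0.08, and without erythroid-like cells it was 0.34, below 1.5-fold. Thinned to 500 UMIs, 0.491% (0.374 to 0.633) of metastasis and 0.267% (0.186 to 0.372) of sham cells had a UMI. Class by class Sftpc was higher in metastasis NK-like cells (37.9 and 13.3 CPM, 1.51) and erythroid-like cells (38.6 and 6.57 CPM, 2.56, on 168 and 3 UMIs). It was at 0 UMIs in metastasis endothelial-like cells, against 26 UMIs in sham ones, at least 3.75-fold lower by a floor of 3 counts per library, on fewer than the 30 UMIs needed elsewhere. In barcodes of under 200 genes, 2 of the 7 genes were higher in metastasis lung (Sftpc, 226 and 148 CPM, and Sftpd, 12.6 and 4.67 CPM) and 1 was lower (Scd1), where 13.8% of 4919 genes were higher and 48.1% lower. Erythroid-like cells thinned to 500 UMIs had a Sftpc UMI in 0.689% (0.475 to 0.967) of metastasis and 0.542% (0.112 to 1.57) of sham cells, and without cells of 10 or more UMIs the ratio there was 1.16 (-0.45 to 3.48). In blood, Sftpc, Sftpa1 and Sftpd had 0 UMIs in both arms, and Sftpb 6 in metastasis and 3 in sham mice over the named classes.

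The other surfactant protein genes were rarer still outside the epithelium. Sftpa1 had 122 metastasis and 58 sham UMIs there, 5.69 and 1.55 CPM (log2 1.87, 1.41 to 2.35), with no cell of 10 or more. Sftpb had 16 and 12 UMIs and Sftpd 19 and 4, under the minimum of 30. Neutrophil-like cells held 8 of the 16 Sftpb UMIs of metastasis lung and 0 of the 12 of sham lung, and 5 of the 6 of metastasis blood. For 100 Sftpc UMIs, barcodes of under 200 genes held 32.9 Sftpa1 UMIs in metastasis and 37.1 in sham lung, between the values of type 2-like and club-like cells. These barcodes held 1.05 and 1.02 Sftpc UMIs for each 100 of Scgb1a1, nearly the same mix in the libraries, while all barcodes together held 0.898 and 2.71.

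In the sum of the other named classes, 4 of the 5 measured genes were higher in metastasis lung (Sftpc, Sftpa1, Scgb1a1 and Fabp5) and 1 was lower (Scd1). Of 14398 genes measured there, 13.2% met the rule as higher and 13.3% as lower, and the median log2 ratio of all genes was -0.27. The classes were mixed in different shares in the libraries: erythroid-like cells were 40.9% of kept cells in metastasis and 4.87% in sham lung, B-like cells 16.6% and 35.4%, and neutrophil-like cells 9.86% and 0.409%.

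Scd1 outside the epithelium was read mainly in B-like cells in both libraries. B-like cells held 94.5% of its UMIs there in metastasis and 96.2% in sham lung. Their level was 302 and 310 CPM (log2 -0.04, -0.14 to 0.06), with a UMI in 38.8% and 45.5% of cells at median depths of 1686 and 2194 UMIs. T-like cells, at greater depth, had a Scd1 UMI in 0.465% of metastasis and 0.655% of sham cells. Summed over all the named classes the level was 57.3 and 94.8 CPM (-0.73, -0.82 to -0.63). Without B-like cells the ratio was -0.41 (-0.85 to 0.03), and B-like cells made up a smaller share of metastasis lung, as given above.

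Other classes carried little Scd1, and several had less in metastasis than in sham lung; T-like cells had 1.62 and 1.91 CPM. Non-classical monocyte-like cells had 9.22 CPM in metastasis and 44.0 CPM in sham lung, neutrophil-like cells 2.79 and 38.7 CPM, and erythroid-like cells 6.67 and 41.6 CPM. Classical monocyte-like cells had 0 UMIs in metastasis and 13 in sham lung, at least 7.67-fold lower by the floor of 3 counts per library. Barcodes of under 200 genes gave 5.41 and 29.0 CPM. The monocyte-like and neutrophil-like values rest on under 30 Scd1 UMIs over both libraries. In blood, B-like cells had 189 CPM in metastasis and 160 CPM in sham mice (0.24, 0.13 to 0.34), within 1.5-fold.

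**Figure D5:**
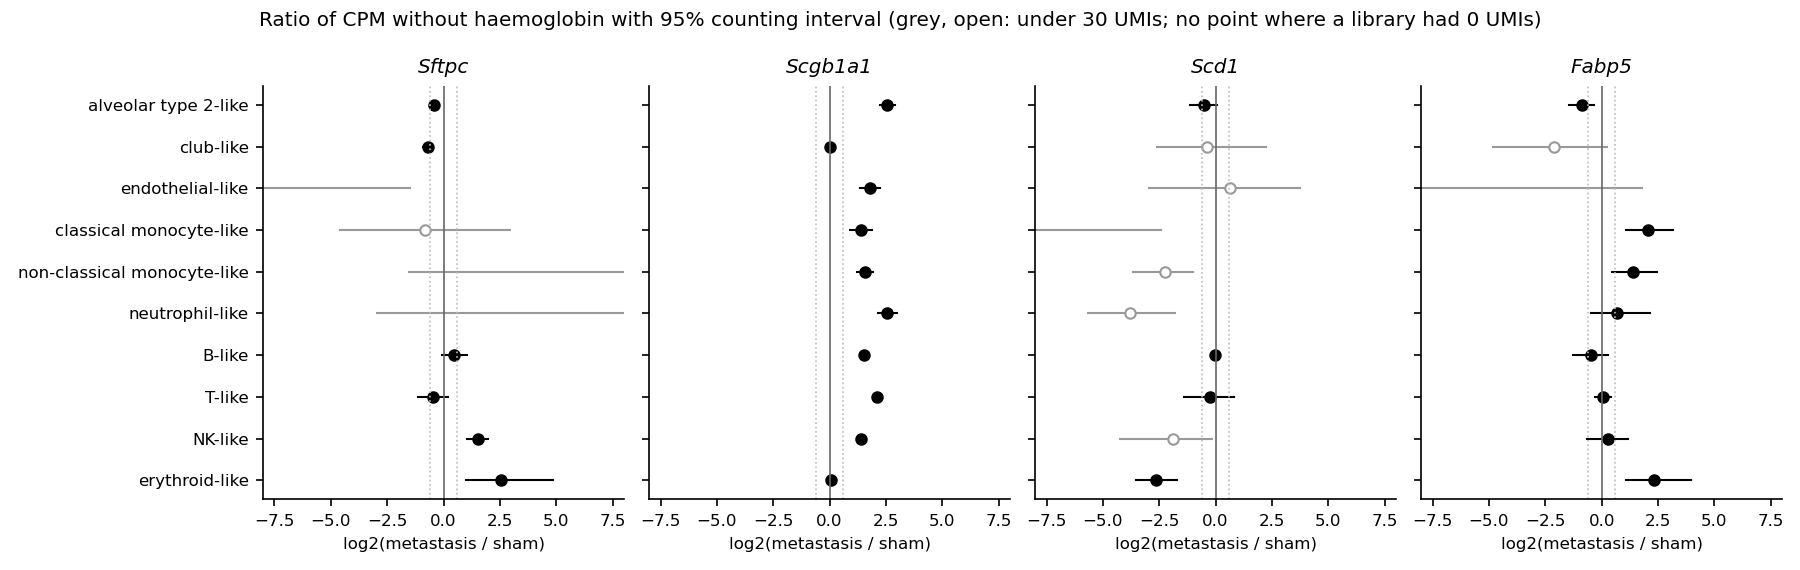
Log2 ratio of CPM, metastasis over sham (horizontal axis), for 4 genes in lung classes with at least 50 cells in each library and in the epithelial subgroups; lines are 95% counting intervals, dotted lines mark 1.5-fold, and grey open points rest on under 30 UMIs. Scgb1a1 lies at 1.38 or above in 7 of the 8 classes outside the epithelium and at 0.08 in erythroid-like cells, where 1 sham cell held 846 of 1383 UMIs, Scd1 near 0 in B-like cells (-0.04), and Fabp5 at 2.04 in classical monocyte-like cells.

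Fabp5 outside the epithelium had its highest levels in basophil or mast-like and alveolar macrophage-like cells, and was higher in monocyte-like cells of metastasis than of sham lung. By UMIs, T-like cells held 9.13% of it outside the epithelium in metastasis and 52.0% in sham lung, and erythroid-like cells 24.2% and 0.956%. Basophil or mast-like cells held 24.3% and 2.29%, and neutrophil-like cells 18.8% and 1.15%, in the same order. B-like cells held 1.9% and 14.3%, and alveolar macrophage-like cells 5.1% and 17.8%. Classical monocyte-like cells had 119 CPM in metastasis and 28.9 CPM in sham lung (log2 2.04, 1.08 to 3.16), and non-classical ones 63.4 and 24.2 CPM (1.39, 0.44 to 2.47). Neutrophil-like cells had 74.5 and 46.5 CPM (0.68, -0.47 to 2.14). T-like cells had 14.7 and 14.02 CPM (0.07), a close match on 91 and 272 UMIs. Alveolar macrophage-like cells, of which there were only 30 metastasis and 44 sham cells, had 307 and 381 CPM (-0.31, -0.84 to 0.19), and 4.25% of the genes measured in them were higher and 3.78% lower.

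Erythroid-like cells had 55.4 Fabp5 CPM in metastasis and 11.0 CPM in sham lung (2.34, 1.10 to 3.97), and basophil or mast-like cells 716 and 254 CPM on 50 and 12 cells. Thinned to 500 UMIs, 0.668% (0.458 to 0.942) of metastasis and 0.542% (0.112 to 1.57) of sham erythroid-like cells had a Fabp5 UMI, and without cells of 10 or more UMIs the ratio there was 1.44 (0.18 to 3.09). Over all the named classes outside the epithelium Fabp5 had 46.5 and 14.015 CPM (1.73, 1.58 to 1.89), and 1.24 without cells of 10 or more UMIs. In blood, classical monocyte-like cells had 53.4 CPM in metastasis and 51.6 CPM in sham mice (0.05, -0.28 to 0.37), non-classical ones 47.4 and 22.2 CPM (1.09, 0.30 to 1.85, on 24 and 41 UMIs), and neutrophil-like cells 59.8 and 67.8 CPM (-0.18). The difference between lung and blood monocyte-like cells was not tested.

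Across 26 values, each a lung class in 1 library, the genes most like each member were named by Pearson's r of log2(CPM + 10). These values share libraries, depth and free RNA, so r is a description. For Sftpc they were Sfta2 (0.97), Cxcl15 (0.97), Clic3 (0.92), Wfdc2 (0.89) and Cbr2 (0.88), and for Scgb1a1 they were Scgb3a2 (0.98), Cyp2f2 (0.93), Gsta4 (0.88), Cbr2 (0.87) and Wfdc2 (0.86). For Scd1 they were Kctd14 (0.85), Lpcat1 (0.84), Baiap2l1 (0.84), Sdc4 (0.79) and Yae1d1 (0.78), and for Fabp5 they were Sord (0.78), Idi1 (0.76), Phf10 (0.76), Bex4 (0.75) and Zdhhc3 (0.74). Among the members, Sftpb and Sftpd were closest (1.00) and Scgb1a1 and Fabp5 farthest apart (-0.03).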

How the data were processed

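Deposited values were raw UMI counts per gene and barcode from the authors, in 1 matrix per library, with no normalisation. The tools named in the submitters' processing notes are R 4.3.1, Seurat 4.3.0.1 and Cell Ranger 7.0.0, with GRCm38.p6 as the build and no role stated for any. The labels name dead-cell columns for lung and density centrifugation for blood, and the design text names kits for CD45 enrichment; which was used where is unclear. No deposited barcode held under 500 UMIs.

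The filters required 200 genes per barcode and a mitochondrial share of no more than 10%. Cells with a Scrublet score of 0.3 or more (expected rate 10%) were removed, 394 in metastasis and 689 in sham lung. Cells were normalised to 10000 UMIs and clustered with scanpy 1.11.5 on 2000 variable genes without the 7 members (30 components, 20 neighbours, Leiden resolution 1). A class needed 3 markers at 20 CPM and 2-fold over other clusters. Epithelial-like cells were clustered again at resolution 0.3, a setting chosen after the clusters were seen.

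UMIs were summed per class and scaled to 1000000 without haemoglobin. Log2 ratios carry exact conditional binomial 95% intervals, and shares exact Clopper-Pearson intervals; with 1 library per group no test was made. The ratio table was tested on simulated counts. The members, gene lists and rule for named genes (all members, up to 4 measured genes per list with the largest ratios, 5 most alike genes) were chosen with earlier results of these data known, and not every list gene that the rule allows is named.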

Additional observations from a re-analysis of the deposited data

Results flagged for a closer look

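Some UMIs of these genes lay in lung barcodes that the filters removed and that the main class comparisons left out. Whole-library values and the alternatives with no mitochondrial limit or with doublets kept took some or all of them in. In sham lung, barcodes removed for their mitochondrial share held 12.19% of the library's Sftpc UMIs, 8.521% of Sftpa1 and 11.81% of Sftpb, while metastasis lung had 0 Sftpc UMIs in its 83 such barcodes. Of the 583 sham barcodes, 14 had Sftpc, and 6 with 10 or more UMIs held 99.1% of it, at a median mitochondrial share of 14.8% against 13.3% over all 583. Barcodes removed as doublets held 8.104% of Scd1 and 6.463% of Fabp5 in metastasis lung, and 9.381% of Scd1 in sham lung. For Sftpc the doublet share was 4.13% in metastasis and 0.122% in sham lung.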

How the results depend on the processing

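Values here are log2 ratios of metastasis over sham lung for the summed epithelial-like class and for the other named classes together. Under the alternatives, 140 values, counts and shares moved by less than the counting error or kept within 1.5 times the count. Another 87 moved further. A change of sign was counted only for values that met the rule in the main setting. It was found for 1 value, that of Sftpc outside the epithelium with haemoglobin in the total. Sftpd in epithelial-like cells did not meet the rule and ran from -0.35 to 0.12. Of the values for single classes 339 held, 46 moved and 4 that met the rule changed sign, and the cause was not tested. Others changed sign without being counted, such as Sftpa1 in club-like cells (-0.36 to 0.39). With at least 400 genes and at most 5% mitochondrial UMIs, the values were in epithelial-like cells Sftpc -1.73, Sftpa1 -0.27, Scgb1a1 0.19, and in the other classes Sftpc 0.45, Scgb1a1 2.33, Scd1 -0.45, Fabp5 2.05, and Scgb1a1 in alveolar type 2-like cells -0.84, Sftpc in club-like cells 3.27, 0 genes lower in the other classes. With a minimum of 100 genes, the values were in epithelial-like cells Sftpc -1.37, Scgb1a1 0.15, and in the other classes Sftpc 1.78, Scgb1a1 2.24. With doublets kept, the values were in epithelial-like cells Scgb1a1 0.18, and in the other classes Scgb1a1 2.29, and Scgb1a1 in non-classical monocyte-like cells -1.65. At Leiden resolution 2, the values were in epithelial-like cells Scgb1a1 0.14, and in the other classes Scgb1a1 2.35, and Fabp5 in basophil or mast-like cells -0.36. With the members among the clustering genes, the values were in the other classes Sftpc 0.65, Scgb1a1 2.55. With no mitochondrial limit, the values were in epithelial-like cells Sftpc -1.71, Sftpa1 -0.62, Scgb1a1 0.17, and in the other classes Sftpc 1.38, Scgb1a1 2.37, and 5 genes lower in epithelial-like cells. With haemoglobin in the total, the values were in epithelial-like cells Scgb1a1 0.17, and in the other classes Sftpc -0.076, Sftpa1 0.81, Scgb1a1 1.34, Scd1 -1.79, Fabp5 0.67. As a mean of CPM per cell, the values were in epithelial-like cells Sftpc -1.65, Sftpa1 -1.11, Sftpb -1.196, Scgb1a1 0.13, Scd1 -2.61, and in the other classes Scgb1a1 2.25, Scd1 -1.07, Fabp5 1.199, and 5 genes lower in epithelial-like cells. With the median gene ratio set to 1, the values were in epithelial-like cells Sftpc -1.31, Sftpa1 -0.31, Scgb1a1 0.30, and in the other classes Sftpc 1.26, Scgb1a1 2.68, Scd1 -0.45, Fabp5 2.00, and 0 genes lower in the other classes. Without cells over 5% haemoglobin, the values were in epithelial-like cells Sftpc -1.77, Sftpa1 -0.60, Scgb1a1 0.19, and in the other classes Sftpc 0.45, Scgb1a1 2.05, Scd1 -0.40, Fabp5 2.01, and 0 genes lower in the other classes. With Scgb1a1 left out of the total, the values were in epithelial-like cells Sftpc -1.17, Sftpa1 -0.17, Sftpb -0.29. In barcodes under 200 genes in place of the other classes, the values were Sftpc 0.61, Sftpa1 0.44, Scgb1a1 0.56, Scd1 -2.42, Fabp5 0.41, and 2 genes higher. Without B-like cells, the values were in the other classes Scgb1a1 2.59, Scd1 -0.41, and 0 genes lower in the other classes. Without erythroid-like cells, the values were in the other classes Sftpc 0.34, Sftpa1 1.38, Scgb1a1 2.06, Scd1 -0.44, and 0 genes lower in the other classes. Without cells of 10 or more UMIs of the gene, the values were in the other classes Scgb1a1 2.12, Fabp5 1.24. Without the cell richest in the gene in each library, the values were in epithelial-like cells Sftpc -1.68, Sftpb -0.93, Scgb1a1 0.13, Scd1 -2.65. With no minimum of UMIs, 85 genes were higher and 1016 lower in epithelial-like cells, against 54 and 263. Apart from barcodes under 200 genes, the share of all genes that met the rule was not counted under the other alternatives. Their counts of member genes therefore have no background. The mean of CPM per cell carried no interval, so its count rests on 1.5-fold alone. Thinned to 500 UMIs per cell, the share of cells with a UMI was 38.8% in metastasis and 10.7% in sham lung for Scgb1a1 and 0.491% and 0.267% for Sftpc outside the epithelium, and 35.1% and 37.5% for Sftpa1 and 5.30% and 5.56% for Sftpc in club-like cells. No paired analysis was possible because each group had 1 library, and for the same reason no replicate could be left out. The removal of the mitochondrial limit, of B-like or erythroid-like cells, of single rich cells and of Scgb1a1 from the total was chosen after seeing the data. Depth limits the type 2-like cells most, where 150 genes were measured in 14 metastasis and 21 sham cells.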

Other observations

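Alveolar macrophages take up surfactant lipid, and 30 metastasis and 44 sham lung cells were alveolar macrophage-like. Of 16 genes of fatty acid binding, uptake and storage 13 were measured; Mgll, a monoglyceride lipase, was higher (301 CPM in metastasis and 160 CPM in sham cells), Pparg, a nuclear receptor of lipid metabolism, was lower (247 and 394 CPM), and the median log2 ratio was -0.20 over these 13. Of 28 fatty acid and phospholipid synthesis genes 8 were measured and 1 was lower, the elongase Elovl6, with 1 UMI in metastasis and 34 in sham cells. Of 7 MHC class II genes 6 were measured and 4 were higher, with a median of 0.73. H2-Ab1 had 325 CPM in metastasis and 168 CPM in sham cells (0.95, 0.34 to 1.57), H2-Aa 385 and 217 CPM (0.83), H2-Eb1 181 and 102 CPM (0.82) and Cd74, the invariant chain, 890 and 574 CPM (0.63). Among all measured genes of these cells 4.25% were higher and 3.78% lower.

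A cluster of 194 metastasis and 49 sham lung cells met all 10 erythroid markers, while Ccdc153, Dynlrb2 and Tmem212, genes of ciliated cells, were among its leading genes, and it was left unnamed. Haemoglobin made up 86.8% of its UMIs. It held 21 Sftpd UMIs in metastasis and 0 in sham lung.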
